A study of Mus musculus with 24 samples.

Results

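mmu-miR-375-3p is a microRNA (miRNA), a short RNA that lowers the translation and the stability of messenger RNAs that pair with its seed, bases 2 to 8 from its 5′ end. It was 1 of 1009 miRNAs listed for the mouse mammary gland, and no other listed miRNA came from its precursor. It was chosen by its measured values, which are its increase from late pregnancy to lactation, ranked 1 of the 544 miRNAs tested, its decrease from lactation to involution, ranked 2 of 544, and its spread between the mice of a stage. Its levels, ratios and spread are therefore given as a description, with no test.

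miR-375 is best known from the endocrine cells of the pancreatic islets and the pituitary, where it is abundant and acts on hormone secretion. It is also found in epithelia, and in the breast it is known from the luminal lineage, which lines the ducts and gives rise to the alveolar cells that secrete milk. The mammary epithelium grows in pregnancy, secretes in lactation and is cleared in involution, while fat, connective tissue and blood cells make up the rest of the gland.

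The 24 libraries of small RNA came from whole mammary glands, each of a separate female C57BL/6 mouse, with 6 mice at each of 4 stages. Adults (W10) were 10 weeks old, late pregnancy (P18) was sampled at gestation day 18, lactation (Lac7) at its day 7, and involution (Inv3) at its day 3. The labels name no treatment and no altered gene, and they give an age for W10 alone. Values are RPM, the reads of a miRNA per 1000000 assigned to any listed miRNA, and the libraries held 660346 to 1165321 such reads, with the Lac7 libraries between 660346 and 751890. RNA was taken from whole glands, so that fewer cells of a type and less RNA per cell cannot be told apart in any of the values here, and which cells held miR-375-3p was not measured.

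The gene, Mir375, lies on the minus strand of chr1:74900658-74900721 (GRCm38), a stretch of 64 bases. No other gene of the GENCODE annotation overlaps it, so it is neither exonic nor intronic to a host gene. It sits between Cryba2, a lens crystallin gene whose nearest base is 7515 bases away, and Cfap65, a gene of cilia and flagella 1350 bases away, both also on the minus strand. The nearest other annotated miRNA gene is 308892 bases away, so that no miRNA cluster surrounds it within 100000 bases.

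At W10 the 6 mice had 76.57 (mouse 1), 21.86 (mouse 2), 10.97 (mouse 3), 27.98 (mouse 4), 10.49 (mouse 5) and 8.95 RPM (mouse 7) of miR-375-3p, a mean of 26.1 ± 25.8 RPM (SD, n = 6). These values rest on 9 to 71 reads per library, so the exact 95% binomial interval, which covers counting error only, was 4.09 to 16.99 RPM for mouse 7 and 59.8 to 96.58 RPM for mouse 1. Mouse 1 stood above the other W10 mice, and without it the W10 mean was 16.1 ± 8.41 RPM (SD, n = 5).

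At P18 the values of mice 1 to 6 were 35.66, 42.46, 17.05, 29.28, 32.61 and 35.63 RPM, a mean of 32.1 ± 8.57 RPM (SD, n = 6) from 16 to 41 reads per library. All 6 P18 mice lay within the range of the W10 mice, so the mean ratio of 1.23 between P18 and W10 was smaller than the spread between W10 mice. Without W10 mouse 1 that ratio was 2.0, with 5 of the 6 P18 mice above all W10 mice and 1 within their range.

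At Lac7 miR-375-3p stood at 956.33, 1027.78, 1008.41, 919.02, 843.5 and 1028.08 RPM in mice 1 to 6, a mean of 964 ± 73.1 RPM (SD, n = 6) from 557 to 768 reads per library. Every Lac7 mouse was above every mouse of the other stages. The mean was 30.01 times that of P18 and 36.9 times that of W10, or 60.1 times without W10 mouse 1.

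At Inv3 the values of mice 1 to 6 were 39.47, 35.1, 392.28, 185.34, 60.96 and 306.07 RPM, a mean of 169.9 ± 152 RPM (SD, n = 6) and a median of 123.15 RPM. The highest mouse had 11.2 times the level of the lowest, against 1.22 times at Lac7. The exact 95% binomial intervals, again for counting error only, were 24.96 to 47.99 RPM in mouse 2 and 354.64 to 432.82 RPM in mouse 3. The Inv3 mean was 5.67 times below that of Lac7, and all 6 Inv3 mice were below all Lac7 mice.

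**Figure D1:**
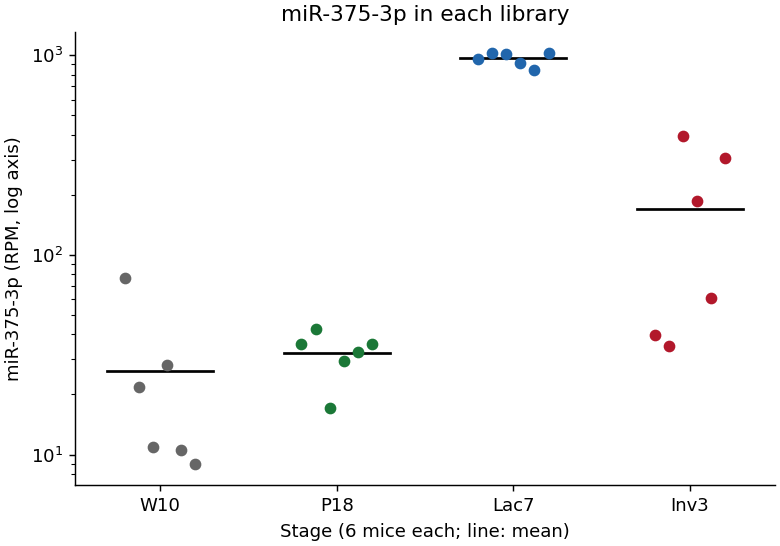
miR-375-3p in RPM on a log axis (vertical) in each of the 24 libraries by stage (horizontal), with a point per mouse and a line at the stage mean. The Lac7 points sit between 843.5 and 1028.08 RPM, above all others, while the Inv3 points run from 35.1 to 392.28 RPM.

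The stage means of miR-375-3p thus ran in the order W10, P18, Inv3, Lac7. The W10 and P18 mice overlapped, as did those of P18 and Inv3, since 2 of the 6 Inv3 mice lay within the P18 range and 4 above it. Of the same Inv3 mice, 3 lay within the W10 range and 3 above. The overlap of Inv3 with W10 rests on W10 mouse 1, without which all 6 Inv3 mice were above the other W10 mice and the ratio of the means went from 6.50 to 10.6. With all mice kept, Lac7 was the stage that overlapped no other.

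Within the libraries, miR-375-3p moved from rank 245 of the stage means at W10 to 213 at P18, 63 at Lac7 and 119 at Inv3. Its neighbours in these rankings were miR-744-5p (26.4 RPM) and miR-222-3p (25.5 RPM) at W10, and miR-181a-1-3p (34.2 RPM) and miR-187-3p (30.9 RPM) at P18. At Lac7 they were miR-19b-3p (1023 RPM), of the growth-linked miR-17-92 cluster, and miR-145a-5p (953 RPM), a smooth muscle miRNA. At Inv3 they were miR-99b-5p (170.2 RPM) and the liver miRNA miR-122-5p (167.1 RPM). In single mice the rank of miR-375-3p was between 62 and 65 at Lac7, but between 88 and 202 at Inv3 and between 176 and 301 at W10.

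The spread of miR-375-3p between mice changed with the stage as well. Its coefficient of variation was 98.8%, 26.7%, 7.59% and 89.4% over W10, P18, Lac7 and Inv3, where counting alone would give 19.8%, 17.9%, 3.84% and 7.96%. Of the other miRNAs with a stage mean of at least 25 RPM, a limit chosen after the values were seen, 0 of 246 varied more at W10 and 51 of 228 at P18. At Lac7 191 of 214 varied more than miR-375-3p, and at Inv3 3 of 222 did, namely miR-122-5p, miR-1a-3p and miR-1b-5p, from liver and muscle. The W10 value rests on mouse 1, without which the coefficient of variation of miR-375-3p was 52.4% and its mean lay under the limit of 25 RPM. Many of the others had fewer reads than miR-375-3p at Lac7 and thus more counting error, which these counts do not correct for.

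With each library scaled by DESeq2 size factors in place of its total, the stage means of miR-375-3p were 21.7, 30.9, 1154 and 174.8 RPM at W10, P18, Lac7 and Inv3. The order of the stages and the separation of Lac7 were kept, while 1 Inv3 mouse lay within the P18 range and 2 within the W10 range.

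In the ranking of log2 fold changes on the log2(RPM + 1) scale, the increase of miR-375-3p from P18 to Lac7 was 4.91, and the next was that of miR-7116-5p at 2.44. From Lac7 to Inv3 it fell by 3.10, between miR-7116-5p, with -2.92, and miR-210-3p, a miRNA induced by low oxygen, with -3.63. From W10 to P18 its difference of 0.66 held rank 78 of 544, between miR-143-3p and miR-339-3p. Without W10 mouse 1 that difference was 1.04. The median over the 544 miRNAs was -0.32, -0.34 and 0.28 in the comparisons of P18 with W10, Lac7 with P18 and Inv3 with Lac7, so in RPM most of the other miRNAs went the opposite way to miR-375-3p in each. With DESeq2 size factors these medians were smaller in size, at -0.12, -0.14 and 0.18, so their size depends on the scaling.

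miRNAs of the luminal epithelium were followed beside miR-375-3p through 8 listed miRNAs, all of which were tested. They are the miR-200 family (miR-200a-3p, miR-141-3p, miR-200b-3p, miR-429-3p and miR-200c-3p), which maintains epithelial identity, and the miR-183 cluster (miR-183-5p, miR-96-5p and miR-182-5p), also of epithelial and sensory cells. Their mature sequences, from RefSeq (GRCm38.p6), are shown because these are the miRNAs against which miR-375-3p is set, with that of the milk-rich miR-148a-3p added. Capitals mark the seed, bases 2 to 8, and all 9 were matched by name. Those with the seed AACACUG come first, then those with AAUACUG, then those that share their seed with none of the others.
miR-200a-3p: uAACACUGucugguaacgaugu
miR-141-3p: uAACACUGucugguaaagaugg
miR-200b-3p: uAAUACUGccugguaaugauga
miR-200c-3p: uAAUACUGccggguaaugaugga
miR-429-3p: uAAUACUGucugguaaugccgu
miR-183-5p: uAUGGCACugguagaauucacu
miR-96-5p: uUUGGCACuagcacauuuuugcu
miR-182-5p: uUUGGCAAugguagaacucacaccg
miR-148a-3p: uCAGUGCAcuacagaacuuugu

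From W10 to P18 all 8 luminal miRNAs rose (limma, adjusted p < 0.05 with log2 fold change of 1 or more in size), against 7.54% of the 544 tested miRNAs called higher at P18 and 20% called lower. Their median log2 fold change was 1.78, with 1.23 as the lowest and 2.19 as the highest. The most abundant, miR-200a-3p, ran from 7072 to 11694 RPM at W10 (median 8089) and from 27361 to 39510 RPM at P18 (median 34236), a 4.01-fold increase (log2 fold change 2.01 ± 0.25 SE, limma adjusted p = 2.4e-07). All P18 mice were above all W10 mice in each of the 8, as in 9.76% of the other 543 tested miRNAs. All 6 P18 mice were within the W10 range in miR-375-3p, but only through W10 mouse 1, and without it 1 was.

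From P18 to Lac7, where miR-375-3p was 30.01 times higher, 6 of the 8 luminal miRNAs rose by the same limma rule, against 7.54% of all tested miRNAs called higher and 22.6% lower. The largest fold among them was that of miR-141-3p, which rose 4.35-fold from 1474 ± 301 to 6411 ± 381 RPM (SD, n = 6; log2 fold change 2.14 ± 0.27 SE, limma adjusted p = 2.2e-07). miR-182-5p rose 3.22-fold and miR-200a-3p 2.16-fold. The miRNAs not called were miR-200c-3p (limma log2 fold change 0.40, adjusted p = 0.095) and miR-183-5p (0.19, adjusted p = 0.58).

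From Lac7 to Inv3 7 of the 8 luminal miRNAs fell, against 10.3% of all tested miRNAs called lower and 16.5% higher. miR-141-3p fell most, 5.53-fold to 1158 ± 665 RPM (SD, n = 6; limma log2 fold change -2.70 ± 0.27 SE, adjusted p = 4.8e-09), close in size to the 5.67-fold lower mean of miR-375-3p. miR-183-5p was not called (log2 fold change -0.67, limma adjusted p = 0.033), and the call of miR-200c-3p was lost without Inv3 mouse 1.

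Against W10 7 of 8 luminal miRNAs were higher at Inv3, beside 5.51% of all tested miRNAs called higher and 19.5% lower, and the call of miR-200b-3p was lost without Inv3 mouse 3 or 6. Against P18 0 of 8 were called in either direction by limma, where 4.41% of all tested miRNAs were called higher and 9.74% lower, and 2 of the 8 had an adjusted p under 0.05 for lower values at Inv3 at any fold, as had 17.7% of the other tested miRNAs. The log2 fold changes of all 8 were negative, with a median of -0.41, although miR-182-5p had the higher mean RPM at Inv3 (2192 against 2038). In Inv3 mice 1, 2 and 5 the summed list was below that of every P18 mouse. In Inv3 mice 3 and 6 it was above that of every P18 mouse, and in mouse 4 it was within the P18 range. Between Lac7 and W10, the stages farthest apart, all 8 were higher at Lac7, beside 10.5% of all tested miRNAs called higher and 39.7% lower.

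**Figure D2:**
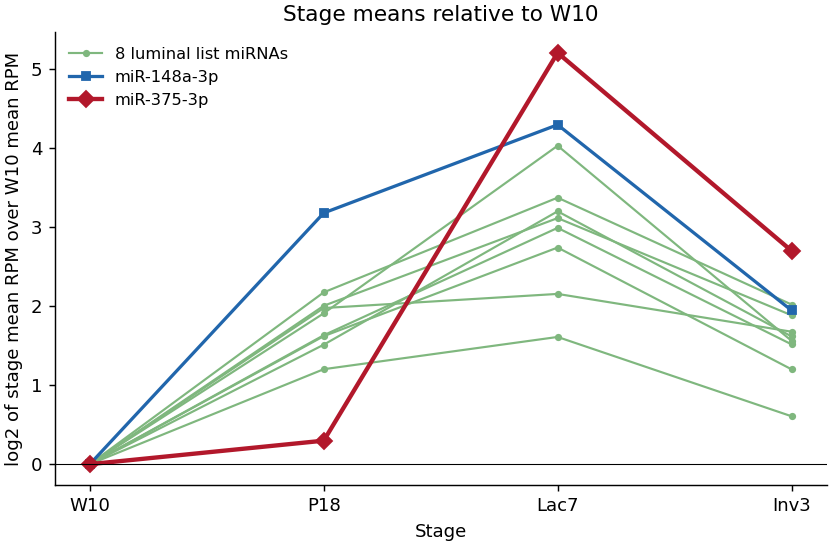
log2 of the stage mean in RPM over the W10 mean (vertical) at each stage (horizontal) for miR-375-3p, miR-148a-3p and the 8 luminal list miRNAs, a line per miRNA. The luminal lines and miR-148a-3p climb from W10 to P18, where miR-375-3p is 1.23 times its W10 mean, and miR-375-3p climbs above all luminal lines at Lac7.

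The summed level of the 8 luminal miRNAs was 17773 ± 2087, 60792 ± 5634, 130666 ± 8444 and 51760 ± 26413 RPM (SD, n = 6 each) over W10, P18, Lac7 and Inv3, with miR-200a-3p the most abundant at each stage. The sum at P18 was 3.42 times that at W10, and at Lac7 2.15 times that at P18. Set against this sum, miR-375-3p had 1.47 ± 1.49 reads per 1000 luminal list reads at W10 and 0.523 ± 0.114 at P18, a lower mean at P18 with 2 of the 6 mice within the W10 range. Without W10 mouse 1 the W10 mean was 0.88 ± 0.394 (SD, n = 5), still 1.68 times that of P18, and 2 P18 mice again lay within the range. It then had 7.39 ± 0.576 reads per 1000 at Lac7, 14.1 times the P18 mean, and 2.72 ± 1.44 at Inv3.

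On that scale no Lac7 mouse overlapped another stage, no Inv3 mouse fell within the P18 range, and 5 of the 6 Inv3 mice fell within the W10 range, or 0 without W10 mouse 1. The lowest Inv3 mouse had 1.40 and the highest P18 mouse 0.638 reads of miR-375-3p per 1000 luminal list reads. The change of this ratio at Lac7 follows from the values by which miR-375-3p was chosen, and it is no finding of its own.

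miR-148a-3p, an abundant miRNA of milk and of the lactating epithelium, rose in pregnancy and in lactation. It stood at 2356 ± 659, 21329 ± 1763, 46228 ± 2907 and 9078 ± 5737 RPM (SD, n = 6 each) over W10, P18, Lac7 and Inv3. Its increase from W10 to P18 was 9.05-fold (limma log2 fold change 3.21 ± 0.30 SE, adjusted p = 2.7e-09), and from P18 to Lac7 2.17-fold (1.12 ± 0.30 SE, adjusted p = 0.0028). miR-210-3p had 31.6 ± 10.97, 303 ± 57.4, 737 ± 67.1 and 74.2 ± 50.8 RPM (SD, n = 6 each) at the same stages, and it fell 9.94-fold from Lac7 to Inv3 (log2 fold change -3.63 ± 0.34 SE, limma adjusted p = 3.4e-09). Both had their larger fold before parturition.

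Over the 24 libraries, the pattern of log2(RPM + 1) most like that of miR-375-3p among the other 543 tested miRNAs was that of miR-182-5p, with a Pearson r of 0.90. It was followed by miR-181a-1-3p (0.90), miR-340-5p (0.87), miR-429-3p (0.87), miR-141-3p (0.86), let-7i-5p (0.84), miR-3068-5p (0.84), miR-3105-5p (0.83), miR-1191a (0.83) and miR-200a-3p (0.82). Of these 10, 4 belong to the luminal list, and the other 4 members of that list ranked between 11 and 37. The libraries share their 4 stages, so these values describe the stage pattern first, and they carry no p.

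Among the 10, miR-181a-1-3p, the passenger arm of a miRNA known from lymphocyte development, had 20.48 ± 4.84, 34.2 ± 5.19, 128.2 ± 9.71 and 34.3 ± 16.4 RPM at W10, P18, Lac7 and Inv3 (SD, n = 6 each). Its Lac7 mean was 3.75 times that of P18, a step given with no test, as are those below, since these miRNAs were picked by their likeness to miR-375-3p in the same libraries. miR-1191a, at 12.6 ± 2.35, 11.96 ± 3.84, 42.0 ± 9.66 and 13.9 ± 4.76 RPM, had nearly equal means at W10 and P18 and a 3.51 times higher one at Lac7. let-7i-5p, of the let-7 family of differentiated cells, stood at 2405 ± 505, 4606 ± 233, 7089 ± 318 and 4104 ± 1215 RPM. The largest step from P18 to Lac7 among the 10 was the 4.35-fold one of miR-141-3p.

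The patterns least like that of miR-375-3p were those of miR-195a-5p (r of -0.95), miR-125b-2-3p (-0.90), miR-199a-3p (-0.90), miR-342-3p (-0.90) and miR-125b-5p (-0.90). miR-199a-3p, a miRNA of fibroblasts, had a 2.58 times lower mean at Lac7 than at P18, and miR-342-3p, of lymphocytes, a 3.46 times lower one, which their choice by a negative r implies. miR-195a-5p, a brake on the cell cycle, stood at 5383 ± 399 RPM at P18 and 2989 ± 286 RPM at Lac7 (SD, n = 6 each).

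After the stage means were subtracted, the 5 tested miRNAs most like miR-375-3p over the 24 mice were miR-148a-3p (r of 0.85), miR-200c-3p (0.82), let-7i-5p (0.82), miR-182-5p (0.78) and miR-183-5p (0.78). Of these, 3 are luminal list members, and the r of the 8 members lay between 0.51 and 0.82. These values too are a description with no p, and most of the spread they rest on is that of the Inv3 mice.

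Relations of miR-375-3p with 9 measures between mice are given as a description with no p, since its spread between the mice of a stage was among the values that chose it. After the stage means were subtracted, the Pearson r over the 24 mice was 0.80 for the luminal list mean, 0.85 for miR-148a-3p and -0.52 for the lymphocyte list mean. The Spearman rho for these 3 were 0.54, 0.07 and -0.53, and without the 2 mice farthest from the median of the other measure r was 0.72, 0.76 and -0.50. For the fibroblast list, the reads per library, miR-210-3p, the basal miRNA miR-205-5p, the skeletal muscle list and the adipose list, r was -0.51, -0.48, 0.44, -0.22, 0.13 and -0.08. Their rho were -0.17, -0.11, 0.27, 0.09, 0.19 and -0.11, and r without the 2 farthest mice was -0.50, -0.42, 0.75, -0.39, 0.14 and 0.08. With size factors in place of the library totals, r was 0.80, 0.84 and -0.51 for the luminal list, miR-148a-3p and the lymphocyte list.

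These values rest mostly on the Inv3 mice, and in part on W10 mouse 1. Leaving out the Inv3 mice was a setting chosen after the data were seen. Without the Inv3 mice, r over 18 mice was 0.36 for the luminal list, 0.65 for miR-148a-3p and -0.23 for the lymphocyte list. Without W10 mouse 1 as well, these were 0.58, -0.03 and -0.19. With the 2 mice farthest from the median of the other measure left out of the 18, they were 0.14, -0.18 and -0.31. For miR-148a-3p these 2 mice included W10 mouse 1, so its -0.18 is no separate check on that mouse. Also without the Inv3 mice, r was 0.11 for the fibroblast list, 0.54 for miR-205-5p and -0.68 for miR-210-3p, but -0.25, 0.42 and 0.02 when the 2 farthest mice were left out as well. For miR-210-3p these 2 mice again included W10 mouse 1. Within W10, P18 and Lac7 alone, r was 0.26, 0.83 and 0.48 for the luminal list, -0.11, 0.89 and -0.06 for the fibroblast list, and -0.88, 0.32 and 0.72 for miR-210-3p. With 6 mice each, these values do not show whether the relation of miR-375-3p with a measure differed between stages.

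In miR-375-3p the Inv3 mice are described here as 2 sets of 3, with no mouse between 60.96 and 185.34 RPM. This division was made on the values that chose miR-375-3p, and it is no test. In RPM the gap between mice 4 and 6, from 185.34 to 306.07 RPM, was nearly as wide. The summed luminal list stood at 28133.9, 24934.4, 77992.0, 63955.4, 32264.5 and 83280.3 RPM in mice 1 to 6, miR-148a-3p at 3405.07, 2810.09, 13758.35, 13717.37, 5579.5 and 15195.24 RPM, and the summed lymphocyte list at 3068.7, 3743.5, 1575.0, 1676.3, 2405.9 and 1756.1 RPM. Mice 3, 4 and 6 were the highest in miR-375-3p, in the luminal list and in miR-148a-3p and the lowest in the lymphocyte list. The same mice were the lowest in the summed fibroblast, smooth muscle, adipose and skeletal muscle lists. They were also the highest in the summed endothelial list and in miR-210-3p. The basal, islet and pituitary, exocrine pancreas, myeloid, red blood cell and liver lists did not divide the mice that way. Within the upper set the order differed, since mouse 3 was highest in miR-375-3p and mouse 6 in the luminal list. A correlation over the 6 mice would set 3 against 3, and 3 mice are too few for one within a set, so no correlation over the Inv3 mice is used here.

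**Figure D3:**
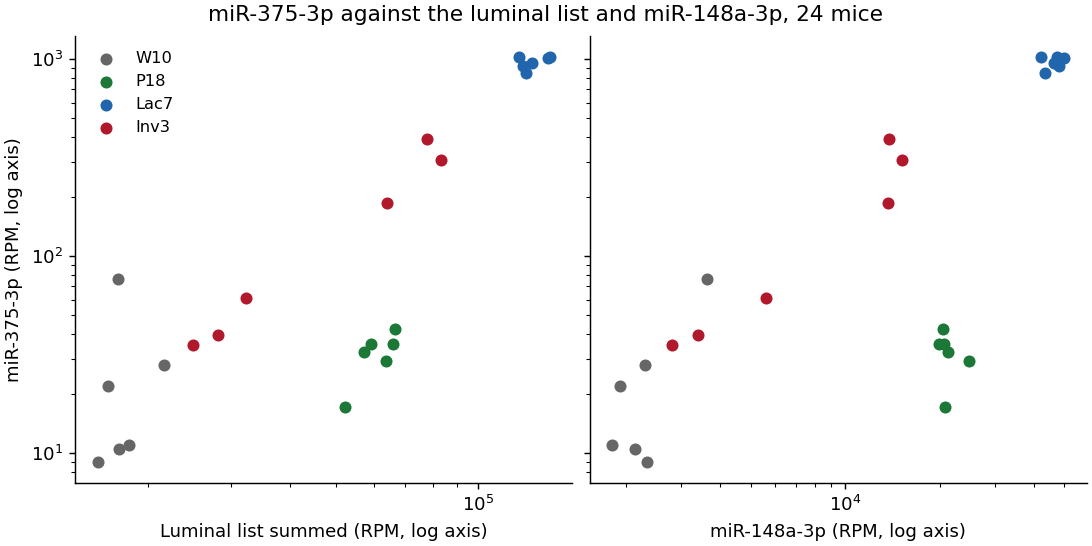
miR-375-3p in RPM (vertical, log axis) against the summed luminal list (left) and miR-148a-3p (right) in RPM (horizontal, log axes), with a point per mouse coloured by stage. The 6 Inv3 points spread along both axes from 35.1 to 392.28 RPM of miR-375-3p, and the P18 points lie below the 1 Inv3 point (mouse 4) within their range of the luminal list.

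Islet and pituitary miRNAs, from the tissues that miR-375 is best known from, are represented by 6 listed miRNAs. Of these 4 were tested, and 0 were called higher at Lac7 than at P18, beside 7.54% of all tested miRNAs. miR-7a-5p, a miRNA of endocrine cells, went from 206 ± 27.2 to 394 ± 53.8 RPM (SD, n = 6 each; limma log2 fold change 0.93, adjusted p = 2e-05), under the fold required for a call but past it with size factors, edgeR or DESeq2, and fell at Inv3 to 151.3 ± 43.8 RPM (-1.41 ± 0.16 SE, limma adjusted p = 4.1e-08). miR-184-3p, an epithelial and islet miRNA, fell 10.7-fold from W10 to P18 and again at Lac7, and rose at Inv3. miR-9-5p fell from W10 to P18 and was not called between the later stages, and miR-124-3p was called in none of the consecutive comparisons. Among all tested miRNAs, 20% were called lower at P18, 22.6% lower at Lac7, and 16.5% higher and 10.3% lower at Inv3, each against the stage before.

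miR-7b-5p and miR-153-3p were under 1 RPM at every stage and were not tested, and miR-153-3p had no read at P18, Lac7 or Inv3. The summed level of the list was 822 ± 194, 319 ± 32.5, 464 ± 48.8 and 272 ± 25.2 RPM at W10, P18, Lac7 and Inv3 (SD, n = 6 each). Of the 3 exocrine pancreas miRNAs, miR-216a-5p and miR-217-5p were tested. With miR-216b-5p they summed to at most 10.79 RPM in any mouse, and at Lac7, where miR-375-3p was highest, miR-216a-5p and miR-216b-5p had no read in any library. A count of 0 in a Lac7 library allows up to 3.99 to 4.54 RPM (3 reads) by counting error alone. By limma miR-216a-5p was called lower at Lac7 and higher at Inv3 at these low levels. Neither call held with a pseudocount of 10 RPM, and the call at Inv3 was also lost with DESeq2 or without Inv3 mouse 2.

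The 2 listed miRNAs of the basal layer differed from each other. miR-205-5p, the marker of basal and stem cells, fell 2.98-fold from P18 to Lac7 (limma log2 fold change -1.57 ± 0.25 SE, adjusted p = 9e-06) and rose 4.45-fold at Inv3 (2.06 ± 0.25 SE, adjusted p = 1.5e-07). miR-203-3p, of keratinised epithelium and the more abundant of the 2, was called in no consecutive comparison. Its limma log2 fold change was -0.41 from P18 to Lac7 (adjusted p = 0.017) and -0.71 from Lac7 to Inv3 (adjusted p = 0.00014), with no overlap of mice in either. In those steps 31.49% and 18.78% of the other tested miRNAs had a limma adjusted p under 0.05 for lower values. Lower values with no overlap of mice were found in 19.15% and 11.05% of the other tested miRNAs. The 4 arms of the miR-143 and miR-145 cluster, of smooth muscle and myoepithelium, were likewise not called between consecutive stages, except that miR-143-5p passed as higher at P18 than at W10 with size factors, edgeR, DESeq2 or a block, and without W10 mouse 2, 3, 4 or 7 or P18 mouse 1 or 3. In addition, all 4 had a limma adjusted p under 0.05 for higher values at Inv3 than at Lac7, as had 28.0% of the other tested miRNAs.

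Of the 5 listed fibroblast miRNAs, 2 fell from W10 to P18, 4 fell from P18 to Lac7 and all 5 rose from Lac7 to Inv3, beside the 20%, 22.6% and 16.5% of all tested miRNAs called in those directions. Their summed level was 89359 ± 10840, 54669 ± 5072, 21488 ± 2804 and 53009 ± 10594 RPM at W10, P18, Lac7 and Inv3 (SD, n = 6 each), mostly from miR-199a-3p. On a scaling by DESeq2 size factors the call of miR-199a-5p was lost in both later steps, as were that of miR-214-5p from P18 to Lac7 and that of miR-214-3p from W10 to P18. The first step of miR-214-3p also lost its call without W10 mouse 3, 4 or 5 or P18 mouse 3, and the middle step of miR-199a-5p without P18 mouse 6.

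In the lymphocyte and myeloid lists, some or all members were called lower in each step up to Lac7 and higher from Lac7 to Inv3. Of 3 lymphocyte miRNAs (miR-150-5p, miR-155-5p and miR-342-3p), 2 fell from W10 to P18, 3 fell from P18 to Lac7 and 3 rose from Lac7 to Inv3, and of 3 myeloid ones (miR-142a-3p, miR-142a-5p and miR-223-3p) 2 fell, 2 fell and 3 rose, beside the 20%, 22.6% and 16.5% of all tested miRNAs called in those directions. By edgeR and DESeq2 the calls of miR-142a-5p and miR-155-5p from W10 to P18 were lost, by size factors that of miR-155-5p, and by DESeq2 those of miR-142a-3p and miR-155-5p from P18 to Lac7. The summed lymphocyte list went from 2059 ± 345 RPM at P18 to 573 ± 153 RPM at Lac7 and 2371 ± 879 RPM at Inv3 (SD, n = 6 each). Its most abundant member was miR-342-3p at each stage, and that of the myeloid list was miR-142a-5p. The part of fibroblasts and blood cells in the level of miR-375-3p was not tested.

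Of the red blood cell miRNAs, miR-451a and miR-486a-5p fell from W10 to P18 and were not called from P18 to Lac7 or from Lac7 to Inv3, while miR-144-3p rose 2.74-fold from P18 to Lac7 and fell 3.91-fold at Inv3 by limma. Among all tested miRNAs, 20% were called lower at P18, 7.54% higher at Lac7 and 10.3% lower at Inv3, each against the stage before. The call of miR-451a was lost with size factors, edgeR or DESeq2 and without W10 mouse 4 or P18 mouse 3 or 4. miR-486a-5p was called higher at Inv3 than at P18 (limma log2 fold change 1.03 ± 0.29 SE, adjusted p = 0.0077), a call lost with a pseudocount of 10 RPM or without P18 mouse 5 or Inv3 mouse 5, and it was called higher at Inv3 than at Lac7 without Lac7 mouse 1. miR-486b-5p was not analysed here. The endothelial arms miR-126a-3p and miR-126a-5p were called in no consecutive comparison. Their sum was highest at Lac7, with 18466 RPM in the stage mean against 15594 to 15816 RPM at the other stages. miR-126a-3p had a limma log2 fold change of -0.01 from W10 to P18 (adjusted p = 0.95), 0.24 from P18 to Lac7 (adjusted p = 0.033) and -0.26 from Lac7 to Inv3 (adjusted p = 0.019). Those of miR-126a-5p were -0.71 (limma adjusted p = 0.0006), 0.47 (adjusted p = 0.016) and 0.13 (adjusted p = 0.51). Of the other tested miRNAs, 13.6% had an adjusted p under 0.05 for higher values at Lac7 than at P18.

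Skeletal muscle and fat miRNAs were highest at W10. The summed muscle list (miR-1a-3p, miR-133a-3p, miR-133b-3p and miR-206-3p) was 11360 ± 7945 RPM at W10 and 381 ± 280 RPM at Inv3 (SD, n = 6 each), and 3 of 4 members fell from W10 to P18, 0 were called from P18 to Lac7 and 2 fell at Inv3, beside 20% lower, 7.54% higher and 22.6% lower, and 10.3% lower among all tested miRNAs. The fall of miR-1a-3p at Inv3 lost its call in the fit of 12 libraries and without Lac7 mouse 1, 2, 3 or 6 or Inv3 mouse 1, 2, 3 or 4, while edgeR called all 4 members lower. Of the adipose miRNAs, miR-365-3p and miR-193b-3p fell from W10 to P18, miR-193b-3p fell again from Lac7 to Inv3, and miR-193a-3p was not called. Beside them stand the same 20% and 10.3% of all tested miRNAs called lower in those steps. miR-193b-3p was under 5 RPM at every stage, and its later call was lost with edgeR, DESeq2, no filter, a pseudocount of 10 RPM or without Lac7 mouse 1. W10 mouse 1, the highest W10 mouse in miR-375-3p, had 10998.5 RPM of the muscle list, near the stage mean.

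The liver miRNA miR-122-5p reached 2062 RPM in P18 mouse 6, where miR-375-3p stood at 35.63 RPM, and 625.6 RPM in Inv3 mouse 2, the Inv3 mouse lowest in miR-375-3p. It was higher at Inv3 than at Lac7 (limma log2 fold change 3.96 ± 1.42 SE, adjusted p = 0.023) with overlapping mice, a call lost with DESeq2 or without Inv3 mouse 2, Inv3 mouse 6, Lac7 mouse 1 or Lac7 mouse 2. The part of such RNA from outside the gland in the level of miR-375-3p was not tested.

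These values describe miR-375-3p in 6 mice per stage at single days, and a miRNA chosen by its values tends to look larger than it would in new mice. RPM gives shares, so the amount of miR-375-3p in a gland was not measured. At W10 its level rests on few reads and on mouse 1, and at Inv3 on mice spread over an 11.2-fold range. The relations between mice are a description and rest mostly on the Inv3 mice, and in part on W10 mouse 1. The lists stand for cell types through a few miRNAs each, and no list is specific to its cell type. Stage and any batch of sampling cannot be told apart, since no batch is given.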

How the data were processed

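The authors isolated small RNA from mammary glands with a mirVana kit, made libraries with a QIAseq miRNA kit, assigned reads with QuickMIRSeq against miRBase and deposited RPM, reads per 1000000 reads on the 1009 listed miRNAs. The submitters' processing notes name Trimmomatic 0.36, cutadapt, FastQC, MultiQC and GRCm38. The series' design text gives other days of lactation and involution than the labels and the paper, whose days, 7 and 3, are used here. The use of molecular identifiers in counting is not given in the sources used here.

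The deposited RPM of a library are whole multiples of what 1 read is worth, so the reads behind them were recovered, and 100% of the values came out whole within 0.015 RPM. A miRNA was tested if its mean reached 1 RPM at any of the 4 stages, which 544 did. The test was limma 3.58.1 under R 4.3.3 (lmFit and eBayes, trend fitted), a single model of the 24 libraries for log2(RPM + 1), two-sided, with Benjamini-Hochberg adjustment over the 544. Calls needed an adjusted p < 0.05 and a log2 fold change of 1 or more in size. Fold changes on that scale understate changes of low miRNAs, while a stated fold is a ratio of mean RPM. Relations between mice were planned with permutation tests, which were run, but no p is given, since the spread of miR-375-3p within stages was among the values that chose it. The scripts, tested on simulated data, used python 3.11.15, numpy 2.4.6, pandas 2.3.3 and scipy 1.17.1. The names ending in @, 16 in all, were kept. Same-stage libraries differed by more than sampling noise (smallest chi-square per degree of freedom 9.63 over 60 pairs), so none was counted as a duplicate. All columns of the table were used, and the W10 mice are numbered 1 to 5 and 7 as in the labels.

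The members and lists were chosen with earlier results of these data known. The miRNAs named are miR-375-3p, the members of the lists (luminal and basal epithelium, islet and pituitary, exocrine pancreas, fibroblast, smooth muscle and myoepithelium, adipose, skeletal muscle, lymphocyte, myeloid, red blood cell, endothelium and liver), miR-148a-3p, miR-210-3p, the 10 most and 5 least alike by r over 24 libraries, the 5 most alike after subtracting stage means, and the neighbours in each ranking. miR-375-5p was planned for and is not analysed here, which leaves 9 of the planned relations. Alternatives were pseudocounts of 0.1 and 10 RPM, DESeq2 1.42.0 size factors, no filter or one at 100 RPM, edgeR 4.0.16 and DESeq2 tests on the recovered reads, fits of 12 libraries, a block for the mouse number, ranks, and each mouse left out.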

Additional observations from a re-analysis of the deposited data

Results flagged for a closer look

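In 104 groups of 6 mice (26 quantities at 4 stages), 13 values stood so far from the other 5 mice that the gap to the nearest, as a share of the range of the group, passed Dixon's limit for 6 samples. Chance alone gives such a value in about 1 in 20 groups if the groups are independent and normally distributed. Here the luminal list sum holds its members, and the liver miRNA was strongly skewed (2062 RPM against 2.07 RPM at P18). The 13 values are therefore not set against that rate. It also does not hold for a miRNA chosen by its spread between mice, or for a ratio built on it.

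Of these, 6 came from W10 mouse 1. It had 76.57 RPM of miR-375-3p, where the next W10 mouse had 27.98 RPM, and 4.423 reads of miR-375-3p per 1000 luminal list reads, where the next had 1.329. It was also the highest in miR-148a-3p (3632 RPM, next 2339), miR-200c-3p (4456 RPM, next 3063), miR-183-5p (410.9 RPM, next 248.4) and the summed basal epithelium list (9106 RPM, next 6236). Its summed luminal list of 17312.5 RPM was near the W10 mean, but the members of the list went both ways. Mouse 1 was the lowest W10 mouse in miR-200a-3p (7072 RPM), miR-141-3p (270.7 RPM), miR-429-3p (232.9 RPM) and miR-96-5p (28.04 RPM). Besides miR-200c-3p and miR-183-5p, it was also the highest in miR-182-5p (857.3 RPM). For miR-375-3p, alone or per 1000 luminal list reads, the values of W10 mouse 1 are a description with no test. The spread of miR-375-3p within stages was among the values that chose it, so passing the limit shows nothing further there.

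miR-148a-3p was highest in P18 mouse 4, with 24830 RPM against 21220 RPM in the next mouse. miR-200a-3p was highest in W10 mouse 4, with 11690 RPM against 8508 RPM. miR-429-3p was lowest in P18 mouse 3, with 598.8 RPM against 822.1 RPM, and that mouse was also the P18 mouse lowest in miR-375-3p.

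The summed skeletal muscle list stood apart in Inv3 mouse 5, with 946.7 RPM against 330.3 RPM. The liver miRNA miR-122-5p stood apart in P18 mouse 6, with 2062 RPM against 2.07 RPM, in Lac7 mouse 6, with 54.77 RPM against 2.66 RPM, and in Inv3 mouse 2, with 625.6 RPM against 195.3 RPM. None of these mice held the highest miR-375-3p of its stage except Lac7 mouse 6, at 1028.08 RPM.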

How the results depend on the processing

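No alternative reversed the direction of a difference of miR-375-3p between stages. Leaving out 1 mouse gave log2 differences of 4.75 to 5.0 from P18 to Lac7, -3.46 to -2.77 from Lac7 to Inv3 and 0.45 to 1.04 from W10 to P18. The number of miRNAs called moved more. With the filter at 100 RPM, which tests fewer miRNAs (188) by construction, 23 were higher and 46 lower at P18 than at W10, 21 and 46 at Lac7 than at P18, 36 and 30 at Inv3 than at Lac7, 18 and 41 at Inv3 than at W10, 8 and 24 at Inv3 than at P18, and 28 and 71 at Lac7 than at W10. A pseudocount of 10 RPM gave 60 lower at P18 than at W10, 54 lower at Lac7 than at P18, 44 higher and 35 lower at Inv3 than at Lac7, 19 and 50 at Inv3 than at W10, 9 and 25 at Inv3 than at P18, and 114 lower at Lac7 than at W10. edgeR gave 62 higher and 71 lower at P18 than at W10, 51 and 60 at Inv3 than at W10, and 90 higher at Lac7 than at W10. DESeq2 gave 66 lower at P18 than at W10, 64 higher and 77 lower at Lac7 than at P18, 49 and 50 at Inv3 than at W10, 31 lower at Inv3 than at P18, and 95 higher and 128 lower at Lac7 than at W10. Size factors gave 63 lower at Inv3 than at W10 and 94 higher at Lac7 than at W10, and moved the share of higher ones among the called miRNAs from 27.3% to 38.7% (P18 over W10), 25% to 39.3% (Lac7 over P18), 61.6% to 54.5% (Inv3 over Lac7), 22.1% to 38.8% (Inv3 over W10), 31.2% to 41.2% (Inv3 over P18) and 20.9% to 37.3% (Lac7 over W10). The cause was not tested.

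Of the listed miRNAs, DESeq2 called 9 lower at Inv3 than at W10. Those higher at Inv3 than at P18 numbered 0 with a pseudocount of 10 RPM, 0 with the filter at 100 RPM and 0 to 2 with 1 mouse left out, and those lower numbered 1 with size factors, with the filter and with DESeq2. Of 5418 alternatives for 165 differences of single listed miRNAs, 5314 stayed called or stayed uncalled, 58 lost a call and 46 gained one. A change of direction was counted only where a call was made in either setting, and 0 were found. Changes of sign between uncalled differences are among the 5314.

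With the mouse number as a block, a pairing for which the data gave no support (mean r of -0.05 over 33 pairs with the same number, against 0.00 over 183 others), the counts higher and lower were 40 and 110 (P18 against W10), 40 and 123 (Lac7 against P18), 90 and 56 (Inv3 against Lac7), 30 and 97 (Inv3 against W10), 25 and 51 (Inv3 against P18) and 59 and 217 (Lac7 against W10), and 2 listed miRNAs were higher at Inv3 than at P18.

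The relations of miR-375-3p over 24 mice, given with no p, were 0.54 by ranks for the luminal list, 0.36 without the Inv3 mice, 0.58 without W10 mouse 1 as well, and 0.26, 0.83 and 0.48 within W10, P18 and Lac7. For the lymphocyte list they were -0.53, -0.23, -0.19, -0.52, -0.32 and -0.79 in the same order. For miR-148a-3p they were 0.07, 0.65, -0.03, 0.77, -0.16 and 0.23, with 0.82 to 0.88 when 1 mouse was left out. Leaving out 1 mouse moved r more for miR-210-3p (0.29 to 0.81), miR-205-5p (-0.39 to -0.08) and the adipose list (-0.26 to 0.08). Of these, 0.81, -0.39 and -0.26 came without W10 mouse 1. Over the 6 Inv3 mice, described above as 2 sets of 3, ranks gave -0.89 for the fibroblast list and -0.71 for miR-205-5p. They gave 0.94 for the luminal list, miR-148a-3p and miR-210-3p and -0.94 for the lymphocyte list, and none of these is read as a relation. Leaving out 1 Inv3 mouse from the Inv3 relations was not run, and miR-375-5p was not analysed here.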
